A study of Homo sapiens with 2 samples.

Results

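MALAT1 and NEAT1 are the genes of well-studied nuclear long noncoding RNAs (lncRNAs), and they lie 52.2 kb apart on chromosome 11. They were taken by name from the RefSeq gene table of GRCh38.p14, in which they are 2 of 18177 lncRNA genes on chromosomes 1 to 22 and X, and every peak touching either gene span or the 200 kb stretch around them, which runs from 72.8 kb before NEAT1 to 43.5 kb past MALAT1, was taken with its position, width, total signal and maximum coverage. The measurements came from R-loop CUT&Tag in A549, an established human lung cancer cell line that was wild type and unperturbed. In this assay an antibody directs a transposase to cut and tag the DNA near its target, and here the antibody was S9.6, which recognises hybrids of RNA and DNA. The study made 1 library with S9.6 and 1 with nonspecific IgG, both from wild-type A549 cells grown in the same medium; the S9.6 peak list was analysed and the IgG library was not used here. The peak list carries no RNA level, so the cell line was not checked against marker genes.

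An R-loop is a stretch of nascent RNA paired with its template DNA while the other DNA strand is left single, and such loops gather at active promoters and where transcription ends. MALAT1 RNA collects in nuclear speckles, bodies rich in splicing factors, and its 3' end is cut by RNase P to release MASCRNA, a small tRNA-like RNA, leaving a triple helix in place of a poly(A) tail. NEAT1 RNA is the scaffold of paraspeckles, bodies that hold RNA-binding proteins such as SFPQ and NONO; it is made as a short and a long form that share their 5' end. Both genes are transcribed toward higher coordinates, so the lower end of each span is the 5' end.

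MALAT1 (gene ID 378938) spans chr11:65497738-65506516, a length of 8779 bp, and RefSeq lists transcripts from 2 starts, at 65497738 and at 65499045. The promoter windows of both starts, from 250 bases before to 50 bases after the start, are shown because a peak covered the first and not the second. The first, chr11:65497488-65497787 on the plus strand, lay wholly under a peak, and the second, chr11:65498795-65499094 on the plus strand, under none. Sequences are from RefSeq, build GRCh38.p14, written 5' to 3', with runs of 3 or more G or 3 or more C in capitals.

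MALAT1 first start: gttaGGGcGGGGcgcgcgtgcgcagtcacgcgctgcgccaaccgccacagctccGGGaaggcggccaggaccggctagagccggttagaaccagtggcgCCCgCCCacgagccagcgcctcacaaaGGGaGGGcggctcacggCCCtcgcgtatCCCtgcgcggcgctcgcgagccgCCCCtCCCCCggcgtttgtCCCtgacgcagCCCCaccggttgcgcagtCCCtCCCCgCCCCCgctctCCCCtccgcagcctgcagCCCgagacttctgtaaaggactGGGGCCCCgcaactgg

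MALAT1 second start: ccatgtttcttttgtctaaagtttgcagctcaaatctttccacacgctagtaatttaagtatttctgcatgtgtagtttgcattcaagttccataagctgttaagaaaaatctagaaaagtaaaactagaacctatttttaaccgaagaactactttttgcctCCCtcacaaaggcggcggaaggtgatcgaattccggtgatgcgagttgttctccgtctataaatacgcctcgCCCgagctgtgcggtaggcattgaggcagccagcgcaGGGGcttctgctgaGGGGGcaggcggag

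The first MALAT1 window was rich in C-runs on the written strand. Its G plus C content was 73.7%, it held 37 CpG dinucleotides, 14 runs of CCC or longer and 6 runs of GGG or longer. Among 34961 promoter windows of the same length in the RefSeq table, 12.3% had as much G plus C, 11.3% as many CpG, 6.94% as many C-runs and 53.2% as many G-runs. The second window had 46% G plus C, 14 CpG, 2 C-runs and 2 G-runs, and 77.5% of windows had as much G plus C. The letters TATAAA, searched on both strands, occurred in the second window and not in the first, and in 11.5% of all windows. TGACTCA, also searched on both strands, was in neither MALAT1 window and in 4.92% of all windows.

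A peak touched 21.8% of all promoter windows, and windows with a peak had a higher G plus C content (median 66%) than windows without (median 55%). Among the 6972 windows within 5 percentage points of the first MALAT1 window in G plus C content, 39.3% had a peak and 12.3% had one with a maximum coverage of at least 6, the value at MALAT1. Among the 7112 windows as close to the second MALAT1 window, 4.54% had a peak. Peaks were thus more frequent among windows with the G plus C content of the first start (39.3%) than of the second (4.54%). Most windows like the first start still had no peak. Whether base composition accounts for the difference between the MALAT1 starts was not tested.

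The 2 peaks at MALAT1 sat on the ends of the gene and the body between them was bare. Maximum coverage is the highest coverage within a peak and total signal is the coverage summed over its bases, both as the authors' peak caller wrote them and seemingly not scaled to depth. The peak at the 5' end, chr11:65496095-65498602, was 2508 bp wide with a total signal of 3546 and a maximum coverage of 6. Its 9 bp of highest coverage lay 261 to 269 bp before the first start. Of its bases, 865 (34.5%) were inside the gene and 1643 upstream of it. It ended before the second promoter window began.

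The peak at the 3' end, chr11:65506012-65508503, was 2492 bp wide with a total signal of 5075 and a maximum coverage of 4. It was lower but more even than the 5' peak: its mean coverage was 2.04, against 1.41 at the 5' end, and its maximum was held over 1123 bp. Only 505 bp (20.3%) lay inside MALAT1, among them all 58 bp of MASCRNA, and 1987 bp lay beyond the gene. The stretch of maximum coverage began 531 bp and ended 1653 bp past the MALAT1 end, and it held the upper end, at 65507432, of TALAM1, the antisense transcript of MALAT1. The peak list gives no strand, so hybrids made by MALAT1 RNA running past its end and by TALAM1 RNA cannot be told apart.

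Between the peaks, 7409 bp of the MALAT1 span (84.4%) carried no peak. A stretch without a listed peak may still have had signal below the authors' threshold, which is not given in the sources used here. Both MALAT1 peaks were unusually wide for this list. The median width of the 45756 peaks on these chromosomes was 685.5 bp, 0.345% of them were as wide as the 5' peak and 0.358% as wide as the 3' peak. In height they were less extreme, as 5.77% of peaks reached a maximum of 6 and 18.5% reached 4.

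**Figure D1:**
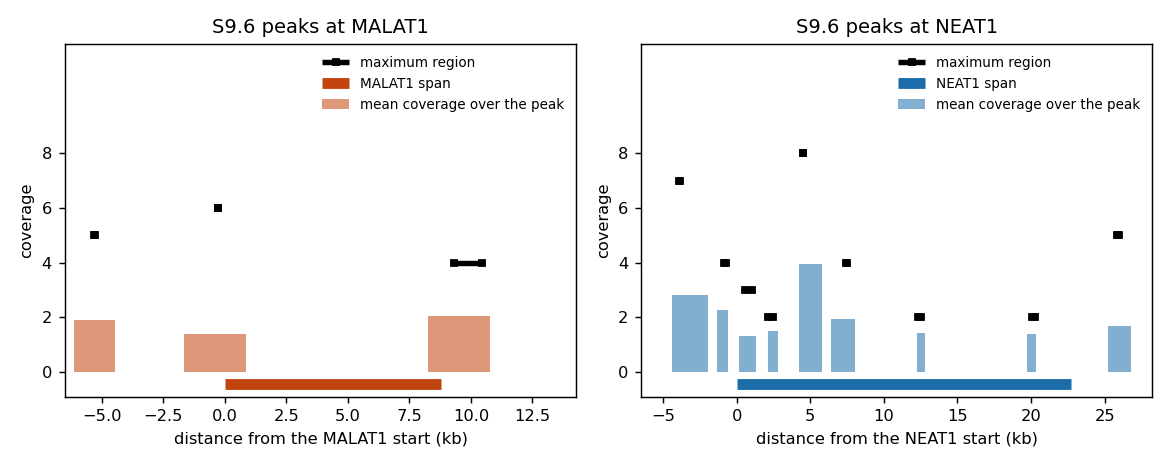
Peaks at MALAT1 (left) and NEAT1 (right) by distance from the gene's 5' start in kb; light bars give each peak's width and mean coverage, black marks its maximum coverage over the region where it was reached, and the thick line below the gene span, with nearby peaks outside the span also drawn. At MALAT1 both maxima, 6 and 4, lie outside the span; at NEAT1 the highest, 8, lies inside it.

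NEAT1 (gene ID 283131) spans chr11:65422798-65445540, a length of 22743 bp, and carried 6 peaks, all of them wholly inside the span. Together they covered 6090 bp, or 26.8% of the gene, with a summed total signal of 13379. The first, chr11:65422955-65424104, began 157 bp past the 5' start, was 1150 bp wide and had a total signal of 1536 and a maximum coverage of 3. The second, chr11:65424904-65425580, was 677 bp wide with a total signal of 1019 and a maximum of 2.

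The tallest NEAT1 peak was not the one at the start. It was the third, chr11:65427050-65428604, from 4.25 to 5.81 kb into the gene, 1555 bp wide, with a total signal of 6136 and a maximum coverage of 8. Of all peaks, 2.61% were as high and 0.89% had as large a total signal. The fourth, chr11:65429229-65430815, followed after a gap of 624 bp and was 1587 bp wide, with a total signal of 3103 and a maximum of 4. The other two stood alone in the 3' part of the gene at the lowest height usual in this list. The fifth, chr11:65435065-65435591, was 527 bp wide with a total signal of 757, and the sixth, chr11:65442550-65443143, was 594 bp wide with a total signal of 828. Each reached a maximum of 2.

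The longest stretch of NEAT1 without a peak was the 6958 bp between the fifth and the sixth, followed by 4249 bp between the fourth and the fifth. The last 2397 bp, which hold MIR612, the microRNA gene near the 3' end of the long form, had none. NEAT1 thus had no peak on its 3' boundary, where MALAT1 had one. Of the 6 peaks, 3 reached a maximum coverage of 3 or more. With peaks of at least that height alone, NEAT1 cover was 18.9%, while MALAT1 kept both of its peaks and its 15.6%.

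If a unit of coverage is a single fragment, which the file does not state, counting error alone gives a maximum of 8 an exact Poisson interval of 3.45 to 15.8, and a maximum of 6 an interval of 2.2 to 13.1. These overlap and no test of the difference was made, so the order in height of the tallest NEAT1 and MALAT1 peaks was not established. A maximum of 2 has an interval of 0.242 to 7.22, and a maximum of 3 one of 0.619 to 8.77. For a maximum of 4 it is 1.09 to 10.2. These also overlap the intervals of 8 and 6, so the order of heights within each gene was not established either. A maximum is the highest value within a called peak, a choice that the intervals do not cover. With 1 library there was no replicate check on any position or height.

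Signal also stood just outside NEAT1. A peak at chr11:65421434-65422216, with a total signal of 1779 and a height of 4, ended 582 bp before the 5' start. Further upstream, chr11:65418414-65420843 was 2430 bp wide with a maximum of 7 and a total signal of 6813, the largest total of the 27 peaks in the 200 kb stretch, and it ended 1955 bp before NEAT1 in a stretch with no gene in the table. A peak of maximum coverage 5 at chr11:65448043-65449590 began 2503 bp past the NEAT1 end. From 5 kb upstream of NEAT1 to its 3' end there were 8 peaks.

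Cover inside the span was larger at the 5' end than at the 3' end in both genes. By total signal of whole peaks, the 3' peak of MALAT1 was the larger. Dividing each span into 5 equal parts, MALAT1 had 49.3% of bases under a peak in the first, 28.8% in the last and none in the middle 3. NEAT1 had 46.7% in the first part, 62.5% in the second, 11.6% in the third, none in the fourth and 13.1% in the last. Among lncRNA genes of similar length that had a peak and a strand in the promoter table, the mean cover was 20.4% in the first part and 7.11 to 9.46% in the others for the MALAT1 lengths (1145 genes). For the NEAT1 lengths (1048 genes) it was 8.79% in the first part and 4.08 to 4.4% in the others.

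Cover at both ends with a bare middle, as at MALAT1, needs at least 2 peaks. Among the lncRNA genes in the MALAT1 length range, 32 had a covered base in the first and the last part and none in the middle 3, which is 7.73% of the 414 genes with 2 or more peaks and 2.02% of the 1583 with any. In NEAT1, 81.6% of the covered bases lay in the first 2 parts, and 42.2% of the 1048 genes had as large a share there, with a median of 54.2%. In MALAT1 the share was 63.1%, and 54.1% of the 1145 genes had as large a share, with a median of 81.6%. These shapes were described after the values had been seen.

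**Figure D2:**
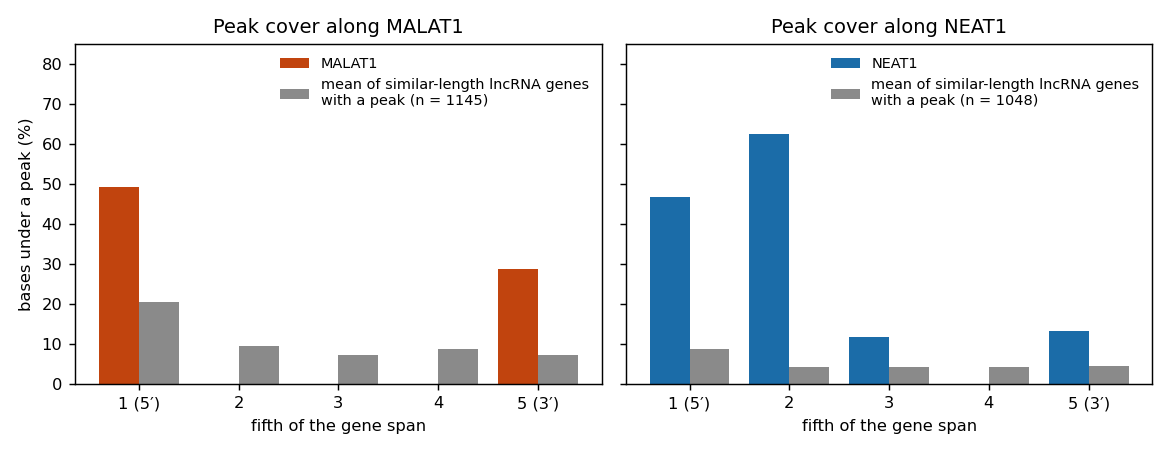
Percent of bases under an S9.6 peak in each of 5 equal parts of the gene span, 5' to 3', for MALAT1 (left) and NEAT1 (right) in colour, beside the mean of lncRNA genes of similar length that have a peak in grey. MALAT1 is covered in the first and last parts only (49.3% and 28.8%); NEAT1 is covered most in the second (62.5%).

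Most lncRNA genes of similar length had no peak (77.3% for MALAT1 and 72.4% for NEAT1), so any gene with a peak exceeded most of them. Counting every peak that touches the span, both genes carried more S9.6 signal than most lncRNA genes of similar length. For MALAT1 this rests on peaks whose maxima lie outside the gene: when the middle of the maximum region had to lie in the span, MALAT1 had 0 peaks and no rank. For MALAT1 the set held the 6976 other lncRNA genes of 4390 to 17558 bp, of which 1583 had a peak over the span (22.7%, 95% Wilson interval 21.7 to 23.7). As many peaks as the 2 at MALAT1 were found in 414 of them (5.93%), as high a maximum in 185 (2.65%), as large a summed signal as 8621 in 34 (0.487%) and as much cover as 15.6% in 283 (4.06%). Among the genes with a peak, the median was 1 peak, a maximum of 3, a summed signal of 1253 and 8.31% cover. Of these genes, 26.2% had as many peaks as MALAT1, 11.7% as high a maximum, 2.15% as large a summed signal and 17.9% as much cover. MALAT1 ranked higher by summed signal than by count. Its 2 peaks were wide, and summed signal counts whole peaks, here with 1643 bp and 1987 bp outside the span.

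For NEAT1 the set held 5556 lncRNA genes of 11372 to 45486 bp, of which 1533 had a peak (27.6%, 95% Wilson interval 26.4 to 28.8). The 6 peaks of NEAT1 were matched or exceeded in 24 of them (0.432%), the maximum of 8 in 76 (1.37%), the summed signal of 13379 in 9 (0.162%) and the cover of 26.8% in 8 (0.144%). The median gene with a peak had 1 peak, a maximum of 3, a summed signal of 1243 and 3.86% cover. Of the genes with a peak, 1.57% had as many as NEAT1, 4.96% as high a maximum, 0.587% as large a summed signal and 0.522% as much cover. NEAT1 stood further out in its set than MALAT1 in all 4 measures. By maximum this order rests on heights of 8 and 6, whose counting intervals overlap. It was reversed among the genes with as many protein-coding neighbours described below. The sets overlap in length and share genes, neighbouring genes can share a peak, and genes are not replicates, so these are ranks within 1 peak list and no test was made.

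Among genes with as many protein-coding neighbours, larger shares had a peak and as many peaks, but the shares for maximum and cover went both ways. MALAT1 had 85 protein-coding genes within 1 Mb and NEAT1 83. Of the 61 lncRNA genes of the MALAT1 lengths with at least as many, 52.5% had a peak and 21.3% had 2 or more. A maximum of 6 was reached by 1 (1.64%), and 19.7% had as much cover. Of the 34 such genes of the NEAT1 lengths, 52.9% had a peak, 1 (2.94%) had as many peaks, 1 as high a maximum and 0 as much cover. Among protein-coding genes of similar length, 20.1% had as many peaks as MALAT1 and 2.89% as many as NEAT1. Transcription was not measured in these files, and its part in the ranks was not tested.

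**Figure D3:**
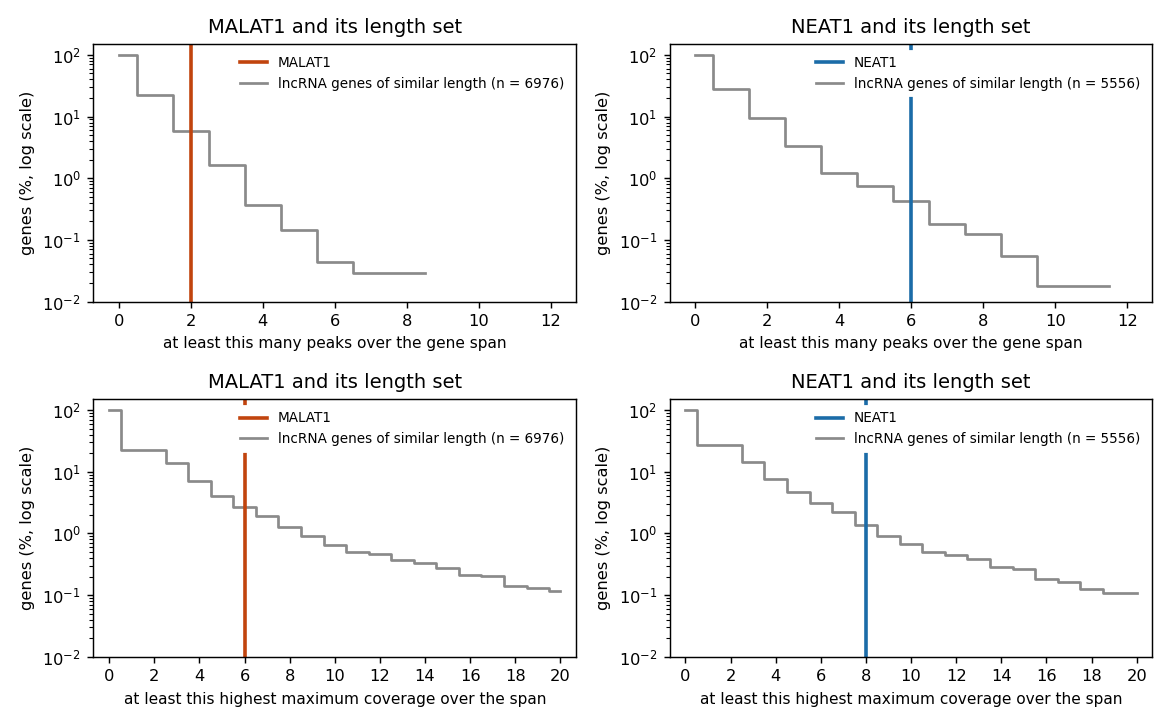
Percent of lncRNA genes of similar length (log scale) with at least the number of peaks (top) or the highest maximum coverage (bottom) on the horizontal axis, with the value of MALAT1 (left) or NEAT1 (right) as a coloured line. Curves meet the lines at 5.93% and 0.432% for the number of peaks and at 2.65% and 1.37% for the maximum; values of 20 or more share the last step of the lower panels.

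The genes most like each member were chosen by the sum of differences in log2(value + 1) of the number of peaks, summed signal, highest maximum and covered bases, within the length set and this 1 library. For MALAT1 they were MICALL2-DT, VSIG10L-AS1, LOC112268433, DENND3-AS1 and LOC105370680, at distances of 0.771 to 1.1. MICALL2-DT had 2 peaks, a maximum of 7, a summed signal of 6312 and 1498 bp of cover, against 8621 and 1370 bp at MALAT1. For NEAT1 they were P2RX5-TAX1BP3, LOC221946, LOC101930100, LINC01297 and RTEL1-TNFRSF6B, at distances of 0.653 to 1.14. P2RX5-TAX1BP3, a readthrough of adjacent protein-coding genes, had 7 peaks, a maximum of 8 and a summed signal of 10714. LOC221946, which overlaps no other protein-coding or lncRNA gene, had 8 peaks, a maximum of 8 and a summed signal of 14707.

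Genes above the members in their sets were of different kinds. LOC221946 and NAPA-AS1 had most peaks in the MALAT1 set with 8 each, followed by LOC101928953 with 6 and LOC124904993 and LOC101930071 with 5. In the NEAT1 set LOC124904683 had 11, MIRLET7BHG, which hosts let-7 microRNAs, and LOC112268061 had 9, and LOC221946 and RTEL1-TNFRSF6B had 8. The highest maxima listed here all belonged to genes with 1 to 3 peaks: 46 at LOC105379426, 37 at LOC105375805, 32 at FAM27E4 and 23 at PPM1B-DT and FAM85A for the MALAT1 lengths. For the NEAT1 lengths they were 92 at KIF5C-AS1, where the peak covered 121 bp of the gene, 46 at LOC105379426, 32 at LOC124903900, 23 at FAM85A and 21 at THUMPD3-AS1. Several of these overlap a protein-coding gene, as NAPA-AS1 does NAPA and THUMPD3-AS1 does THUMPD3, and the peak list does not say which gene a peak belongs to. LOC105379426 begins at base 97 of chromosome 3. How reads with several matches were handled is not given, and whether they raised any of these maxima was not tested. MALAT1 and NEAT1 touch no protein-coding gene span. Among lncRNA genes of which the same is true, 4.18% had as many peaks as MALAT1 and 0.199% as many as NEAT1.

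The 200 kb stretch around both genes held 27 peaks, which covered 14.9% of it. Of these, 8 lay over MALAT1 or NEAT1, 13 over other genes alone and 6 over no gene of the table. A median of 1 peak was found in 15162 windows of 200 kb, and 119 of them (0.785%) held at least 27. On chromosome 11 alone 6 of 676 windows (0.888%) did so. The window was also rich in genes, with 10 protein-coding or lncRNA genes, and among 492 windows with as many, 59 (12%) held 27 peaks or more and the median was 11.

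The tallest peak of the stretch lay over neither member. It was at chr11:65381953-65383028, over SLC25A45, a gene of the mitochondrial carrier family, and FRMD8, whose spans overlap, with a total signal of 4937 and a maximum of 12. FRMD8 had 6 peaks in 45500 bp, of which SLC25A45 shared 3. Between NEAT1 and MALAT1 there were 6 peaks. Among them, LINC02736 had 1 with a maximum of 7, and ENEMAL, a lncRNA gene of 711 bp, lay wholly under 1 with a maximum of 4. The pseudogene FAUP4 had 1 with a maximum of 3, whose origin is uncertain because pseudogenes can share reads with their parent gene. Past MALAT1, LTBP3, which encodes a TGF-beta binding protein, had 2 peaks, of which 1 lay past the stretch, with maxima up to 3. DPF2, at the lower edge, had 2 peaks with a maximum of 4, both below the stretch, and TIGD3 and the pseudogene SNRPGP19 had none.

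**Figure D4:**
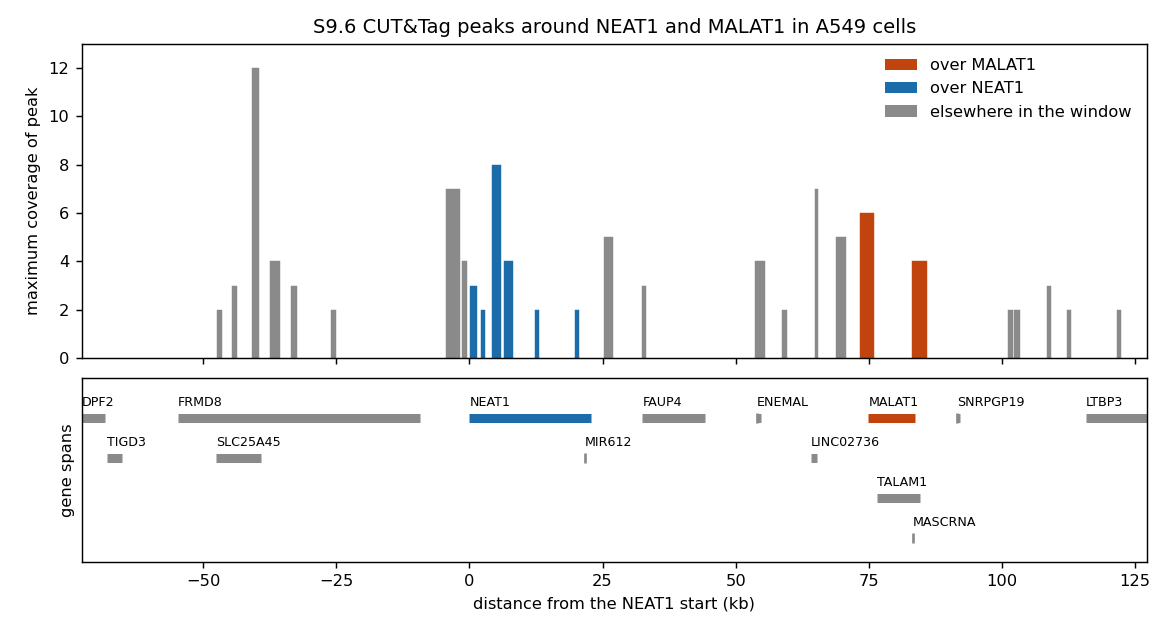
Maximum coverage of each of the 27 S9.6 peaks in the 200 kb of chromosome 11 around both genes, drawn at their width by distance from the NEAT1 start in kb, with spans of the genes named in the text below. NEAT1 peaks (blue) reach 8, MALAT1 peaks (orange) 6 and the tallest other peak (grey), over SLC25A45 and FRMD8, 12.

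Genes whose products work with the RNAs of MALAT1 and NEAT1 were looked at through 4 lists. Of 35 genes of paraspeckle proteins, 22 had a peak over the span (62.9%, 95% Wilson interval 46.3 to 76.8), against 56.3% of all protein-coding genes, and the median highest maximum was 3 against 2. The highest were HNRNPA1 and EWSR1 with 10, HNRNPF with 8, and AKAP8L, HNRNPK and RBM14 with 7. All of these encode RNA-binding proteins except AKAP8L, a nuclear anchoring protein. The single HNRNPA1 peak covered only 1.62% of the 6362 bp HNRNPA1 span, so it may belong to a neighbour. No peak was listed over CPSF6, FIGN or HNRNPH1. The genes of the core paraspeckle proteins, named after their values were seen, had little signal beside NEAT1: SFPQ and NONO had no peak, and PSPC1 had 1 with a maximum of 2 in 111741 bp.

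Of 33 genes of nuclear speckle proteins, 24 had a peak (72.7%, 95% Wilson interval 55.8 to 84.9), against the same 56.3%, with a median highest maximum of 3 against 2. U2AF2, which encodes a splicing factor that recognises the polypyrimidine tract, had 4 peaks and a maximum of 19, and THRAP3 had 1 peak of 13. SF1, the branch point binding protein, and PNN reached 11, and SRSF5, a serine and arginine rich splicing factor, 10. ALYREF, CLK1 and DDX39B had none over their spans, nor did SON, a scaffold of the speckle, which was named after its value was seen.

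Genes that process or regulate the RNAs had a peak in 21 of 30 cases (70%, 95% Wilson interval 52.1 to 83.3), against 56.3% of all protein-coding genes, a share inside the interval. The count includes TALAM1, whose peak is the 3' peak of MALAT1. Without TALAM1, 20 of 29 genes had a peak. RPPH1, which like TALAM1 is not a protein-coding gene, is in both counts. SP1, a transcription factor, had the highest, a single peak of 20. RPPH1, the RNA subunit of RNase P, had 12 and lay wholly under its peak, the RNase P protein gene POP4 had 8 with 4 peaks, and HNRNPC, which binds m6A-dependent structures in MALAT1, had 8. METTL16, which binds the MALAT1 triple helix, and ELAC2, the RNase Z that finishes MASCRNA, had 2 peaks each with a maximum of 3. The small RNA processing genes DGCR8, DICER1 and DROSHA had none over their spans.

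Of 39 other widely studied lncRNA genes, 23 had a peak (59%, 95% Wilson interval 43.4 to 72.9), against 25.3% of all lncRNA genes. TUG1 and TINCR, both without a peak over the span, are typed as protein-coding in the RefSeq table and lie outside that 25.3%. The snoRNA hosts ZFAS1 (3 peaks, maximum 11) and GAS5 (1 peak, maximum 10) and MIR22HG (1 peak, maximum 9) were above the 8 of NEAT1, and FTX equalled the 6 of MALAT1 with 4 peaks in 265439 bp. LINC00963 and KCNQ1OT1, an imprinted antisense RNA, had 3 peaks each and reached 5. By number of peaks, LINC-PINT had 12 in 232364 bp and CYTOR 6 in 66092 bp, against the 6 of NEAT1 in 22743 bp. No peak lay over BCYRN1, CCAT2, CRNDE or TUG1, the last named after its value was seen. The lists differ in gene length, with medians of 20607 bp for paraspeckle and 19682 bp for speckle genes against 24170.5 bp for all protein-coding genes, and of 10131 bp against 9083 bp for lncRNA genes. The lists were chosen with results of these data known and carry no test.

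**Figure D5:**
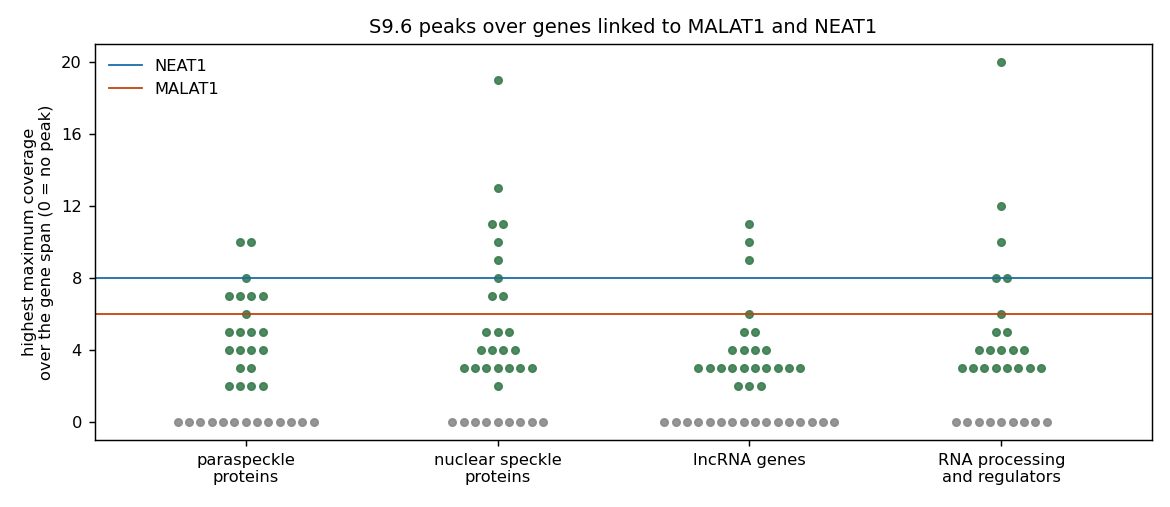
Highest maximum coverage of any peak over the gene span for each gene of the 4 lists (green points; grey points at 0 have no peak), with the values of NEAT1 (8) and MALAT1 (6) as lines. In each list 3 or more genes lie above the NEAT1 line, except among paraspeckle genes, where 2 do.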

How the data were processed

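R-loops were profiled by CUT&Tag with S9.6 in wild-type A549 cells, in 1 library; the IgG library was not analysed here. Per the submitters' processing notes the build was GRCh38 and the tools included SEACR 1.3, Bowtie2 2.4.2, fastp 0.23.2, bedtools 2.30.0, SAMtools 1.9 and deepTools 3.5.2, whose roles and order the notes do not state. Not given in the sources used here are the peak threshold, whether IgG served as control, and how duplicates and reads with several matches were handled. The deposited list of 47810 peaks, made by the authors, gives a total signal and a maximum coverage per peak as whole numbers; these units were read from the values and from the column layout, which is that of SEACR. No peak had a total above its width times its maximum. The total number of reads is unknown, so intervals cover counting error only.

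Of the peaks, 45756 on chromosomes 1 to 22 and X were used. A peak counted for a gene when at least 1 base lay in the RefSeq span (GRCh38.p14), a scheme tested on simulated peaks. Summed signal takes whole peaks, cover only bases inside the span. Similar length meant within a factor of 2 of MALAT1 or NEAT1. Of 137 listed genes, 136 matched by symbol and 1 by an older symbol. The members and lists were chosen with earlier results of these data known. Named were both genes, every gene of the chromosome 11 stretch, the 5 highest and the first 3 members without a peak in alphabetical order of each list, and, in each length set, the 5 genes with most peaks, the 5 with the highest maximum and the 5 most alike. Some genes that this rule names are not reported here. Alternatives changed the overlap rule, the peaks, the lengths and the genes compared. Python 3.11.15, pandas 2.3.3, NumPy 2.4.6, SciPy 1.17.1 and matplotlib 3.10.9 were used.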

Additional observations from a re-analysis of the deposited data

How the results depend on the processing

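Of 117 values recomputed under other settings for 20 results, 66 stayed within their counting interval or within 1.5 times the count given above, and 51 moved. The main dependence was that of MALAT1 on the overlap rule: when the middle of a peak's maximum region had to lie in the span, MALAT1 had 0 peaks, 0% cover and a maximum of 0, so no rank could be computed, since both of its maxima lie outside the gene. Shares of similar-length genes with a peak were then 20.1% (MALAT1) and 25.8% (NEAT1), and 0.81% reached the maximum of NEAT1. With spans widened by 1000 bp, MALAT1 cover was 31.3%. In the MALAT1 set 26.5% had a peak, 7.58% as many peaks, 3.23% as high a maximum and 0.473% as much cover, and in the NEAT1 set 30.2% had a peak. With peaks of maximum coverage 3 or more, NEAT1 had 3 peaks and 18.9% cover and the chromosome 11 stretch 17 peaks. In the MALAT1 set 13.7% had a peak, 2.58% as many and 2.39% as much cover, and in the NEAT1 set 14.5% had a peak and 0.99% as many. With the 22878 peaks of highest total signal, NEAT1 cover was 21.8%. In the MALAT1 set 14.4% had a peak, 2.54% as many and 2.74% as much cover, in the NEAT1 set 16.4% had a peak, and 0.587% of windows held as many peaks as the chromosome 11 stretch.

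With lengths within a factor of 1.5, 0.0304% had as much cover as NEAT1; a factor of 3 moved no value. Among lncRNA genes apart from protein-coding genes, the MALAT1 set had 19.4% with a peak, 4.18% with as many, 1.99% with as high a maximum and 2.7% with as much cover, and the NEAT1 set 23.4% with a peak, 0.199% with as many and 0.626% with as high a maximum. In regions as gene-dense, the MALAT1 set had 52.5% with a peak, 21.3% with as many, 1.64% with as high a maximum and 19.7% with as much cover, and the NEAT1 set 52.9%, 2.94%, 2.94% and 0% of 34 genes. Among protein-coding genes of similar length the same shares were 48.9%, 20.1%, 9.94% and 12.4% for MALAT1 and 57.4%, 2.89%, 5.16% and 1.15% for NEAT1. Among windows with as many genes, 12% held as many peaks. The counts of list members with a peak moved by less than 1.5 times in every setting tried, but they did fall. When the middle of the maximum region had to lie in the span, 15 paraspeckle genes had a peak against 22. The counts were then 20 against 24 for speckle genes, 20 against 23 for lncRNA genes and 15 against 21 for processing genes. The share of all protein-coding genes under that rule is not given here. The cause of these shifts was not tested, beyond the fewer peaks or genes that a setting leaves. No paired analysis was possible because there was 1 library per antibody and no test between libraries.

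Depth limits the heights: most peaks reached a maximum coverage of 2 to 4, and a gene without a listed peak is not shown to lack hybrids. Hybrid-dependent signal was not separated from other tagging, as no RNase H-treated or IgG signal was compared.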

Other observations

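Of the listed genes without a peak over the span, 10 had a peak within 1000 bp of it. The highest was at CRNDE, a lncRNA gene on chromosome 16, with a maximum coverage of 10, and UCA1 had 5, MIR31HG 3 and TINCR 2. Among speckle genes, the peaks beside ALYREF, an mRNA export adaptor, reached 7, beside SON 5 and beside SRSF4 2. The microprocessor subunit gene DGCR8 had 2 such peaks with a maximum of 5, the RNase P subunit gene POP1 1 with a maximum of 4 and RBM3, a cold-inducible RNA-binding protein gene, 1 with a maximum of 2. Such peaks lie wholly outside the gene span and may belong to a neighbour, as does the peak 582 bp before NEAT1.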
